A study of Mus musculus with 10 samples.

Results

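The connexin genes Gja1 (connexin 43), Gja4 (connexin 37), Gja5 (connexin 40) and Gjc1 (connexin 45) were followed in aortic smooth muscle of mouse embryos with and without elastin. They were taken by gene symbol and are 4 of the 28165 genes in the count table. All 4 passed the filter on low counts, which kept 15718 genes. The set was selected on the CPM of Gja4, which had stood out between these genotypes, so its difference is given as a description that supports nothing. The other 3 were added as further connexins of vessels. Cells were sorted from the aorta at embryonic day 15.5 as positive for a green fluorescent Acta2 reporter, negative for the endothelial surface protein CD31 and negative for DAPI, a dye that enters dead cells. There were 5 libraries from Eln-/- embryos, which lack elastin, the core protein of elastic fibres, and 5 from their Eln+/+ counterparts. All embryos carried the Acta2-GFP reporter, came from crosses between Eln+/- mice and received no treatment. The labels name neither the Eln allele nor the number of embryos behind a library, so the spread between libraries may be partly technical.

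Connexins are membrane proteins that assemble into channels. Where channels of neighbouring cells dock, they form gap junctions that pass ions and small molecules between the cells and let a stretch of vessel wall respond as a unit. Connexin 43 is the widely expressed connexin of smooth muscle, connexin 37 and connexin 40 are best known from arterial endothelium and are also found in some smooth muscle, and connexin 45 occurs in smooth muscle and in the conduction system of the heart.

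Totals ranged from 28367780 to 56371507 estimated counts in Eln-/- libraries and from 26951733 to 63866416 in Eln+/+ libraries. Eln itself was at 0 to 0.493 CPM (counts scaled to library size, here with TMM factors, which correct for differences in RNA composition) in Eln-/- libraries and at 159 to 1214 CPM in Eln+/+ libraries, which matches the labels. The smooth muscle marker Acta2, whose promoter drives the reporter, was at 601 to 1742 CPM in Eln-/- libraries and 473 to 1195 CPM in Eln+/+ libraries, while the late smooth muscle marker Myh11 ranged from 0.0377 to 119 CPM and from 1.47 to 34.5 CPM in the same order. Pecam1, which encodes CD31, was at 0 to 3.41 CPM in Eln-/- libraries and 0 to 7.70 CPM in Eln+/+ libraries. Eln-/- replicates 4 and 5 and Eln+/+ replicate 1 stood apart, with 15595, 15925 and 15089 genes detected at 1 count or more, against 18157 to 22951 in the other 7 libraries. The row CT010467.1, annotated as ribosomal RNA, held 5.99%, 5.52% and 5.53% of the counts in these 3, in the order named, against 0.225% to 2.96% in the other 7. Blood and immune markers summed to 5145, 619 and 18870 CPM there, against 24.0 to 1344 CPM in the other 7.

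Gja4 transcripts were the only ones of the 4 connexins whose levels did not overlap between genotypes with TMM scaling, and they overlapped when scaled by library totals alone. Gja4 occupies chromosome 4, minus strand, 127311421 to 127314039 (mm10), and has 2 exons in its single annotated transcript of 1685 bases. Gja4 was at 51.9, 50.8, 62.5, 31.4 and 96.7 CPM in Eln-/- replicates 1 to 5. The Eln+/+ libraries, in the same order of replicates, held Gja4 at 12.6, 17.1, 8.95, 29.3 and 20.3 CPM. The lowest Eln-/- library, replicate 4, was just above the highest Eln+/+ library, replicate 4. Gja4 averaged 58.7 ± 24.1 CPM in Eln-/- cells and 17.6 ± 7.81 CPM in Eln+/+ cells (SD, n = 5 each), and its median was 3.03 times higher in Eln-/-. Among the 15718 genes tested, 22 had all their Eln-/- libraries above all their Eln+/+ libraries (0.140%) and 26 had them all below (0.165%). Gja4 is among the 22, which is part of why it was chosen.

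The separation depended on the scaling. With CPM by library total alone, Gja4 was at 67.3, 66.9, 72.5, 15.2 and 81.8 CPM in Eln-/- replicates 1 to 5 against 7.05, 23.4, 10.3, 35.3 and 22.9 CPM in the Eln+/+ replicates. Then 4 of the 5 Eln-/- libraries lay above all Eln+/+ libraries and Eln-/- replicate 4 lay among them, and 18 of the genes tested (0.115%) were higher and 30 (0.191%) lower without overlap. The TMM factor of that library was 0.486, the smallest of the 10. The edgeR log2 fold change of Gja4 (Eln-/- over Eln+/+) was 1.73 (SE 0.49) and ranged from 1.32 to 1.99 over 22 alternatives. Gja4 did not pass the adjusted threshold of 0.05 in the edgeR quasi-likelihood test (adjusted p = 1.00) or in any alternative, where its smallest adjusted p was 0.104 (DESeq2 on all genes). No gene at all passed in that edgeR fit, 0% higher and 0% lower, and 81 genes had an unadjusted p under 0.05. Even Eln did not pass there (log2 fold change -12.19, SE 1.64, edgeR adjusted p = 0.152), so not passing does not show that a gene is unchanged. Without the 3 libraries with few detected genes, Gja4 was at 50.8 to 62.5 CPM in 3 Eln-/- libraries and 8.95 to 29.3 CPM in 4 Eln+/+ libraries, and by library total at 66.9 to 72.5 and 10.3 to 35.3 CPM. Eln-/- replicate 4, the only Eln-/- library that overlapped by library total, is among those left out. The separation by library total without it therefore follows from the exclusion.

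**Figure D1:**
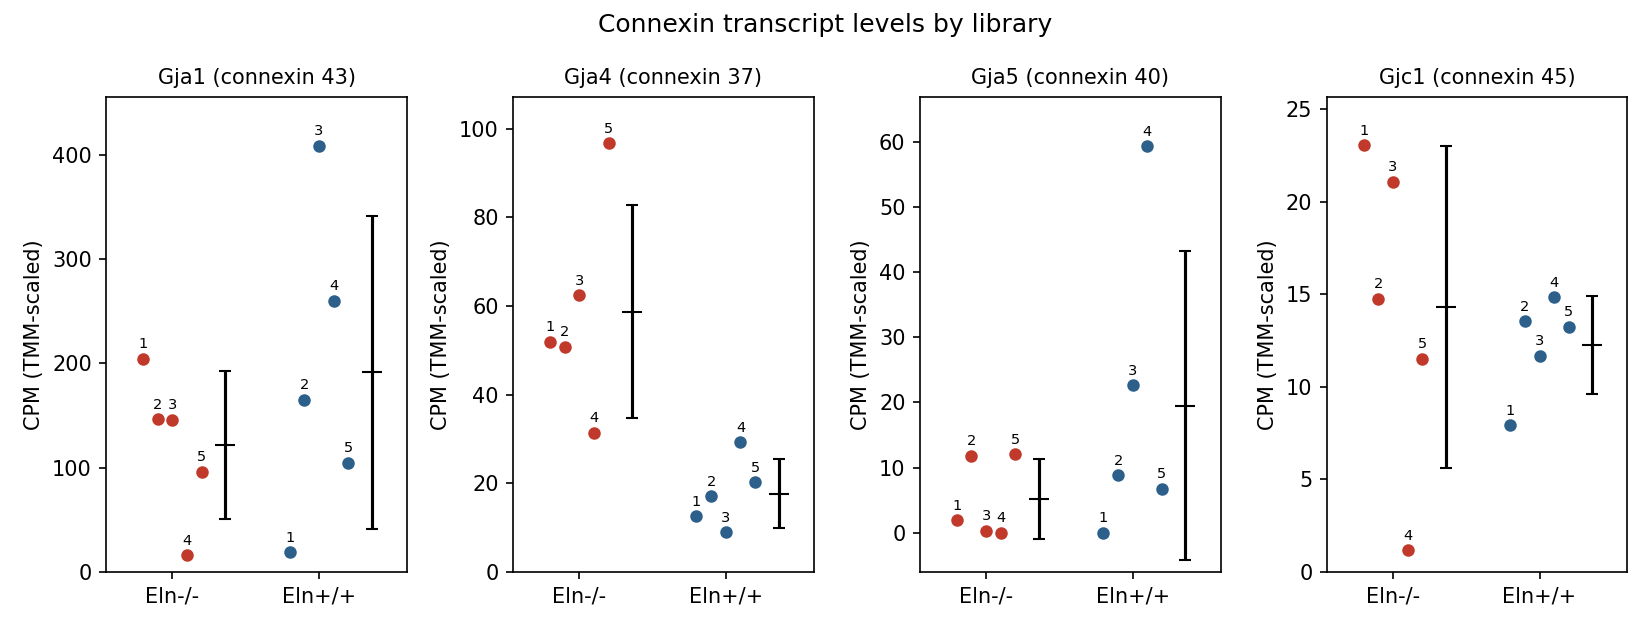
Level of each connexin transcript (vertical axis, TMM-scaled CPM, one linear scale per gene) in the Eln-/- and Eln+/+ libraries. Points are libraries with their replicate number, and the bar beside each group is the mean with the SD (n = 5). The Gja4 points of the genotypes do not overlap, at 31.4 to 96.7 CPM in Eln-/- against 8.95 to 29.3 CPM in Eln+/+ libraries, though they overlap when scaled by library totals alone, and those of Gja1, Gja5 and Gjc1 do.

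**Figure D2:**
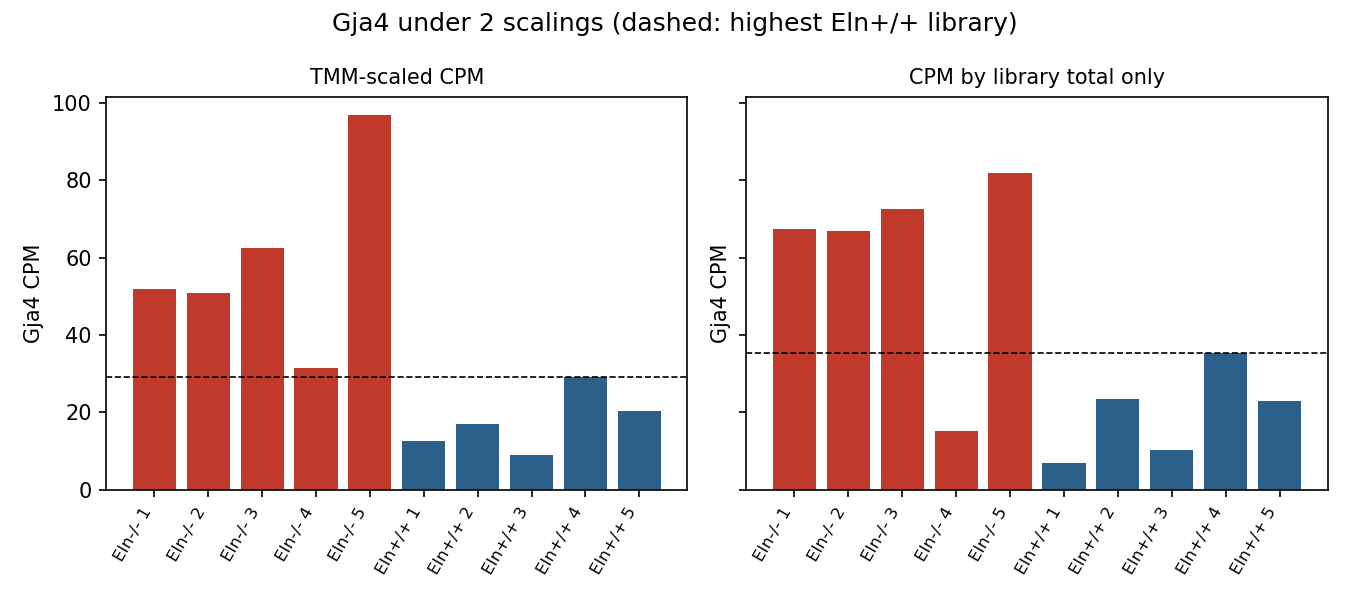
Gja4 in each library (bars, CPM) with TMM scaling on the left and with library totals alone on the right. The dashed line marks the highest Eln+/+ library, at 29.3 CPM on the left and 35.3 CPM on the right. Eln-/- replicate 4 is just above the line on the left and below it, at 15.2 CPM, on the right.

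Gja1 had the most CPM of the 4 in every library but Eln-/- replicates 4 and 5, where Gja4 had more, and its levels overlapped widely between genotypes. It spans 56377330 to 56402513 of chromosome 10, plus strand, with 8 annotated transcripts. Gja1 was at 204, 146, 146, 15.9 and 96.0 CPM in Eln-/- replicates 1 to 5. The Eln+/+ libraries, in the same order of replicates, held Gja1 at 18.8, 165, 409, 260 and 105 CPM. Both groups held a very low library, and both of those were among the libraries with few detected genes. The log2 fold change of Gja1 was -0.65 (SE 0.77, edgeR adjusted p = 1.00), and -0.17 without Eln+/+ replicate 3, its highest library. Gja1 ranked 1221 by abundance among the genes tested, Gja4 3781, Gjc1 7012 and Gja5 7270, in counts that are not divided by length.

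The windows of 250 bases just upstream of the RefSeq start sites of Gja4 and Gja1 are shown because these 2 genes made up most of the connexin signal and varied differently across libraries (sequences from RefSeq, GRCm38.p6, gene strand, 5′ to 3′). Of the 4 genes, 3 had an entry, and Gjc1 was not matched. Capitals mark motif matches on either strand. The motifs searched were the GC box GGGCGG, the TATA box TATAAA, the AP-1 site TGANTCA, the RBPJ core TGGGAA, the E-box CACGTG and the serum response factor site known as the CArG box, none of which overlapped another here.
Gja4, chr4:127314040-127314289, minus strand: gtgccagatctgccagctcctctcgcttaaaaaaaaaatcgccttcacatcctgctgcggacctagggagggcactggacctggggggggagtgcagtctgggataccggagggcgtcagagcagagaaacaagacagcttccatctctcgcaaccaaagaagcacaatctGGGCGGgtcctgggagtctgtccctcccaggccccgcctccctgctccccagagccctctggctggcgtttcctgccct
Gja1, chr10:56377050-56377299, plus strand: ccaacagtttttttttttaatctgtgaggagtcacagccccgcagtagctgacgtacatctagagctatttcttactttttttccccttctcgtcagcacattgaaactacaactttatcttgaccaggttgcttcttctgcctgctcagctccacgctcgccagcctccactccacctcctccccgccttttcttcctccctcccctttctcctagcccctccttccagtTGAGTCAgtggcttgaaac
The Gja4 window held 1 GC box, starting 79 bases before the start site, and the Gja1 window held 1 AP-1 match, starting 19 bases before it. The Gja5 window, not shown, held 1 GC box, starting 17 bases before the start site. No other searched motif was found in these 3 windows. Of 32851 promoter windows of the same length, 32.7% held the GC box, 12.4% the TATA box, 6.75% the AP-1 site, 21.6% the RBPJ core, 6.02% the E-box and 1.47% the CArG box. A match describes the letters only.

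Gja5 was the most variable of the 4. Its annotated span on chromosome 3, from 96904693 to 97077416 on the plus strand, is long because 1 of 3 transcripts starts far upstream, and 165 bases of its exons overlap those of Gpr89 on the other strand, so reads there cannot be assigned without the strand setting. Gja5 was at 1.94, 11.8, 0.341, 0 and 12.1 CPM in Eln-/- replicates 1 to 5. The Eln+/+ libraries, in the same order of replicates, held Gja5 at 0, 8.84, 22.6, 59.3 and 6.77 CPM. Eln+/+ replicate 4 was far above the rest, and the 2 libraries at 0 came from different genotypes. At the depth of those libraries a count of 0 allows up to 0.106 CPM by library total in Eln-/- replicate 4 and 0.111 CPM in Eln+/+ replicate 1 (3 counts, counting error only). The log2 fold change of Gja5 was -1.90 (SE 1.61, edgeR adjusted p = 1.00), and -0.87 without Eln+/+ replicate 4. The coefficient of variation between libraries that edgeR fitted was 1.62 for Gja5, higher than for 84.4% of the genes tested, against 0.841 for Gja1, 0.821 for Gjc1 and 0.603 for Gja4, the last higher than for 7.22% of genes.

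Gjc1 was fairly even across Eln+/+ libraries with TMM scaling, but ranged from 4.45 to 18.5 CPM there by library totals alone. It spans 102799579 to 102819700 of chromosome 11, minus strand. Gjc1 was at 23.1, 14.8, 21.1, 1.16 and 11.5 CPM in Eln-/- replicates 1 to 5. The Eln+/+ libraries, in the same order of replicates, held Gjc1 at 7.93, 13.5, 11.7, 14.8 and 13.3 CPM. Both the highest and the lowest of the 10 libraries were Eln-/-. The log2 fold change of Gjc1 was 0.23 (SE 0.71, edgeR adjusted p = 1.00). It turned to -0.014 without Eln-/- replicate 1 and was 0.58 (SE 0.32) without the 3 libraries with few detected genes.

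Because a longer transcript yields more reads, levels were compared between genes per kilobase. Divided by the union of annotated exons, Gja4 was the highest of the 4 in 5 of 5 Eln-/- libraries and in 2 of 5 Eln+/+ libraries, with Gja1 highest in the other 3. Gja4 held 55.3% to 91.3% of the summed connexin level in Eln-/- libraries (median 66.7%) and 10.3% to 68.6% in Eln+/+ libraries (median 33.3%). Gja1 held 7.60% to 35.8% in Eln-/- libraries and 16.8% to 77.5% in Eln+/+ libraries. The exon union of Gja1, 10257 bases, is much longer than its longest single transcript, 3889 bases. Divided by the longest transcript, a length chosen after the data were seen, Gja1 was highest in 3 of 5 Eln-/- and 4 of 5 Eln+/+ libraries, and the share of Gja4 was 34.0% to 80.8% (median 45.9%) in Eln-/- and 4.43% to 51.0% (median 17.2%) in Eln+/+. The order of Gja4 and Gja1 switched with the length in Eln-/- replicates 1, 2 and 3 and in Eln+/+ replicate 5. With both lengths Gja4 was above Gja1 in Eln-/- replicates 4 and 5 and Eln+/+ replicate 1, and below it in Eln+/+ replicates 2, 3 and 4. The shares of the genotypes overlapped with either length, and the Eln+/+ library with the highest Gja4 share was replicate 1, one of those with few detected genes. Gja5 was the lowest of the 4 in 5 of 5 Eln-/- libraries and in 3 of 5 Eln+/+ libraries with either length.

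**Figure D3:**
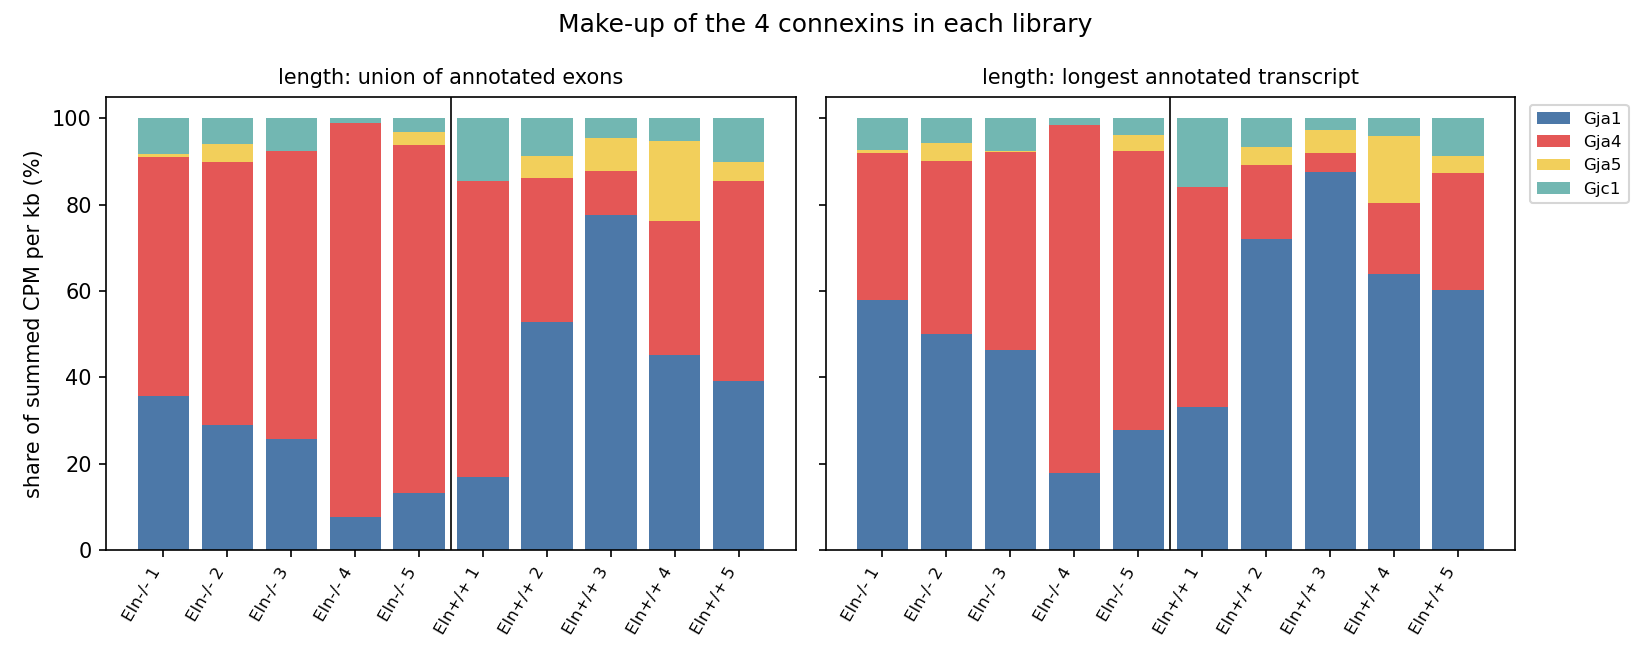
Share of the summed level (vertical axis, % of CPM per kilobase) held by each connexin in each library, with lengths from the exon union on the left and from the longest transcript on the right. With the exon union Gja4 takes 55.3% to 91.3% in Eln-/- libraries and 10.3% to 68.6% in Eln+/+ libraries, and its share is smaller with the longest transcript.

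Gja1 and Gjc1 were low where few genes were detected, and Gja4 was not uniformly so. In the libraries with few detected genes, Eln-/- replicates 4 and 5 and Eln+/+ replicate 1, Gja1 was at 15.9, 96.0 and 18.8 CPM, below the 105 to 409 CPM of the other 7. Gjc1 was at 1.16, 11.5 and 7.93 CPM there, below the 11.7 to 23.1 CPM of the other 7. Gja4, at 31.4, 96.7 and 12.6 CPM, lay on both sides of the other libraries, which ranged from 8.95 to 62.5 CPM. Over the 10 libraries, Pearson's r between log2 CPM and the number of detected genes was 0.690 for Gja1, 0.636 for Gjc1, 0.512 for Gja5 and 0.129 for Gja4 (Spearman's rho 0.661, 0.867, 0.304 and 0.212 in that order). Gja1 and Gja5 varied together (r = 0.851, rho = 0.693), as did Gja1 and Gjc1 (r = 0.756, rho = 0.636), whereas r between Gja4 and Gja1 was 0.024 (rho = -0.236). Eln-/- replicate 4 and Eln+/+ replicate 1 held the lowest Gja1 and Gjc1 levels and 0 counts of Gja5. These libraries weigh heavily in the r of Gja1 with Gja5 and with Gjc1, and r without them was not tested. All these correlations are descriptions over 10 libraries that share depth and genotype differences. In bulk RNA, fewer cells of a type and less RNA per cell cannot be told apart.

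**Figure D4:**
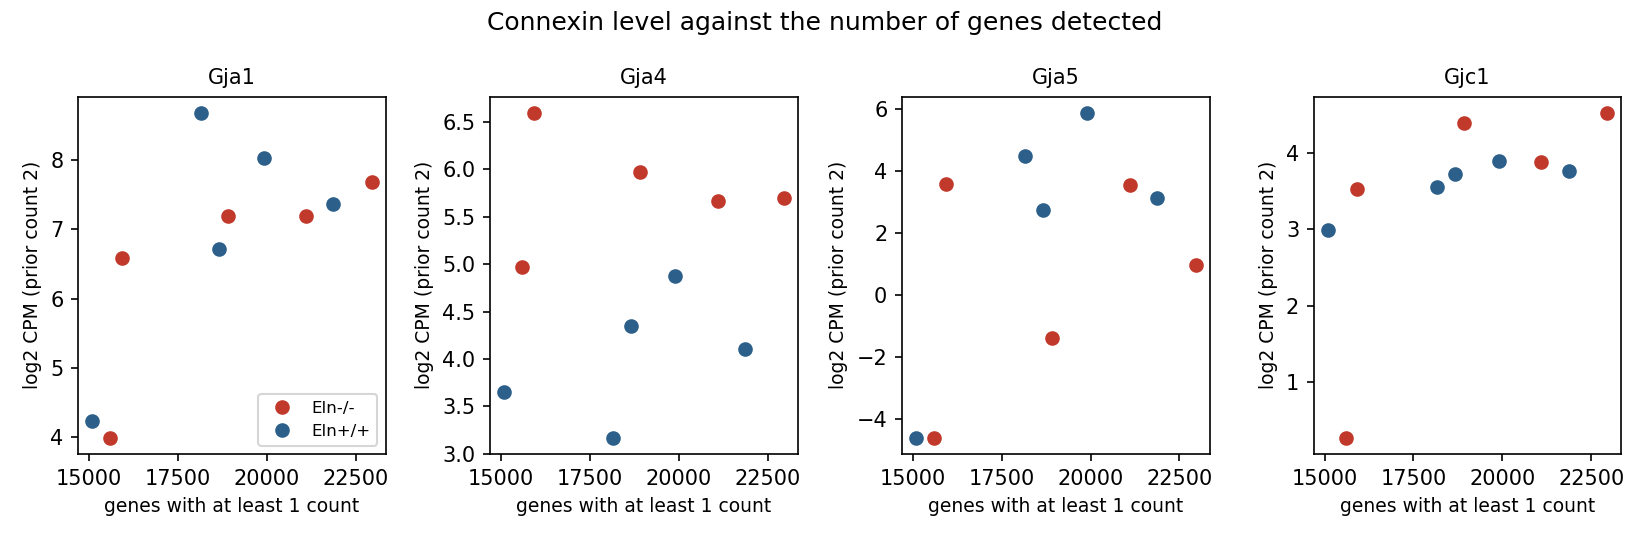
Level of each connexin (vertical axis, log2 CPM with a prior count of 2) against the number of genes with at least 1 count in the library (horizontal axis), with Eln-/- and Eln+/+ libraries in different colours. The libraries at the left, with 15089 to 15925 genes, are low for Gja1 and Gjc1 and are not uniformly low for Gja4.

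Genes with the most similar pattern over the 10 libraries were sought among the 10880 genes with an abundance of at least 2 as edgeR summarises it (the log2 of a mean CPM over the libraries, which a gene with single libraries at 0 can reach). The gene closest to Gja4 was Ccn5, a secreted CCN protein (r = 0.957, rho = 0.952), followed by Vasp, which promotes actin filament growth (r = 0.899, rho = 0.855), and Polr2a, the catalytic core subunit of RNA polymerase II (r = 0.892, rho = 0.903). Ccn5 ranged from 69.2 to 433 CPM in Eln-/- and from 7.79 to 48.0 CPM in Eln+/+, and Polr2a from 136 to 283 and from 7.08 to 35.9 CPM, so the genotype difference enters these correlations with Gja4. Closest to Gja1 were Gnb1, a beta subunit of G proteins (r = 0.987, rho = 0.976), B4galt4, a galactosyltransferase (r = 0.981), and Mier1, a chromatin protein whose exons overlap those of Wdr78 (r = 0.980). Closest to Gjc1 were Tinagl1, a matrix protein (r = 0.983, rho = 0.879), St3gal5, which makes the ganglioside GM3 (r = 0.982, rho = 0.903), and the interleukin receptor Il1r1 (r = 0.981, rho = 0.903). In their lowest Eln-/- library these genes were at 0.0726, 0.436 and 0 CPM in that order. Gjc1 was at 1.16 CPM in its own lowest, so values near 0 enter these correlations. Gja5 was followed less closely than Gja1 and Gjc1. Its closest genes were the transcription factor Creb3l4 (r = 0.945, rho = 0.890), Trim65 (r = 0.932, rho = 0.754) and the RNA-binding protein Rbm4 (r = 0.927, rho = 0.766), the last 2 with exons overlapping another gene. Gja5 had 0 counts in Eln-/- replicate 4 and Eln+/+ replicate 1, and Creb3l4 was at 0 CPM in its lowest library of each genotype. Values at 0 therefore enter the correlations with Gja5 too.

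Other connexins were scarce. Of 11 further connexin genes in the table, 10 averaged under 1 CPM, with a count in 1 to 4 of the 10 libraries, and were not tested. The exception was Gjb5, known from skin and placenta, at 0 to 6.11 CPM in Eln-/- and 0 to 14.1 CPM in Eln+/+ libraries (log2 fold change of Gjb5 -1.39, SE 1.75, edgeR adjusted p = 1.00). Panx1, a pannexin that forms channels releasing ATP without making gap junctions, was at 37.4, 23.2, 37.7, 0.218 and 34.6 CPM in Eln-/- replicates 1 to 5. The Eln+/+ libraries, in the same order of replicates, held Panx1 at 5.62, 27.5, 25.2, 30.0 and 49.6 CPM. Its 2 lowest libraries were among those with few detected genes (log2 fold change -0.05, SE 0.92, edgeR adjusted p = 1.00).

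None of the genes listed as binding, carrying or phosphorylating connexins passed the edgeR test, and 0 had an unadjusted p under 0.05. Of the 33 listed, 31 were tested, 14 with positive and 17 with negative fold changes, and their median log2 fold change was -0.03 against 0.02 for all genes tested. Prkaca, the catalytic subunit of protein kinase A, averaged 42.9 ± 19.6 CPM in Eln-/- libraries and 26.0 ± 11.6 CPM in Eln+/+ libraries (SD, n = 5 each; log2 fold change 0.72, SE 0.51). Cav1, the coat protein of caveolae, averaged 205 ± 139 CPM in Eln-/- libraries and 288 ± 150 CPM in Eln+/+ libraries (log2 fold change -0.49, SE 0.71). Its fold change was -0.18 without Eln-/- replicate 4 and -0.12 without the 3 libraries with few detected genes. Hspa1a, a heat shock protein whose exons overlap Gm20481 on the other strand, was at 81.1 CPM in Eln-/- replicate 1 and 0 to 5.17 CPM in the other Eln-/- libraries. Its log2 fold change of 1.03 (SE 1.47) turned to -1.80 without that library. Eps15, an endocytic adaptor, ranged from 1.40 to 45.9 CPM in Eln-/- libraries and from 14.0 to 58.9 CPM in Eln+/+ libraries (log2 fold change -0.78, SE 0.81). The value for Eps15 was -0.47 without Eln-/- replicate 5 and -0.36 without the same 3 libraries. DESeq2 and limma-voom also called 0 genes of this list or of any other list described here. DESeq2 gave no p-value for Hspa1a, nor for Klf2, which is described below.

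Of 40 genes tied to vascular connexin expression or coupling (Notch pathway genes, Klf2, T-box and other transcription factors, channels), 32 were tested and 0 passed with edgeR, 18 with positive and 14 with negative fold changes and a median of 0.11. Hes1 and Klf2 were the 2 with an unadjusted p under 0.05. Hes1, which Notch signalling induces, ranged from 80.5 to 213 CPM in Eln-/- libraries and from 50.9 to 96.6 CPM in Eln+/+ libraries (log2 fold change of Hes1 0.95, SE 0.40, edgeR adjusted p = 1.00). Klf2, a transcription factor induced by flow and by cell stimulation, was at 553 CPM in Eln-/- replicate 1 and 17.2 to 45.3 CPM in the other Eln-/- libraries, against 4.97 to 71.1 CPM in Eln+/+. Its log2 fold change was 2.48 (SE 1.07) and 0.48 without that library. Nos3 and Sox18, both known from endothelium, were scarce. Nos3, whose exons overlap those of Atg9b, was at most 0.256 CPM in Eln-/- and 1.71 CPM in Eln+/+ libraries (log2 fold change -2.19, SE 1.36), and Sox18 at most 1.13 and 6.45 CPM in that order (log2 fold change -2.20, SE 1.86). Without Eln+/+ replicate 4 the log2 fold change of Sox18 was -0.67.

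Markers of other cell types were measured beside Gja4. Of 16 endothelial markers, 8 were tested and 0 passed with edgeR, 0 of them at an unadjusted p under 0.05. The 16 had a summed level of 49.2 to 102 CPM in Eln-/- and 15.5 to 114 CPM in Eln+/+ libraries. Of the 8 tested, 5 had positive and 3 negative fold changes, with a median of 0.18. The defining endothelial genes Pecam1, Cdh5 and Cldn5 were at most 3.41, 0.808 and 0.106 CPM in Eln-/- libraries and at most 7.70, 5.07 and 31.6 CPM in Eln+/+ libraries. Kdr, a receptor for vascular endothelial growth factor, averaged 2.62 CPM in Eln-/- and 0.0618 CPM in Eln+/+ libraries, Egfl7 24.8 and 16.9 CPM and the transcription factor Erg 3.15 and 0.999 CPM in that order. Flt1, which endothelium also uses, was at 2.85 to 36.4 CPM in Eln-/- and 0.0223 to 7.74 CPM in Eln+/+. Of 7 arterial endothelial markers, 5 were tested and 0 passed with edgeR, 2 with positive and 3 with negative fold changes (median -0.29). These 7 summed to 55.1 to 452 CPM in Eln-/- libraries and 56.1 to 363 CPM in Eln+/+ libraries. The 8 pericyte and mural markers summed to 930 to 3008 CPM in Eln-/- libraries and 733 to 1401 CPM in Eln+/+ libraries, and the 10 smooth muscle markers to 1170 to 3997 and 966 to 2496 CPM. The mural sum averaged 1546 ± 859 CPM in Eln-/- libraries and 941 ± 274 CPM in Eln+/+ libraries, and the smooth muscle sum 2787 ± 1032 CPM and 1886 ± 578 CPM in that order (SD, n = 5 each). Most of the mural sum was Rgs5 alone, which averaged 1302 CPM in Eln-/- and 692 CPM in Eln+/+ libraries. Of the 8 mural markers, 5 had positive and 3 negative fold changes (median 0.35). The 10 smooth muscle markers had 8 positive and 2 negative (median 0.82), and 0 of either list passed with edgeR.

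Of the other marker lists, immediate early genes, which tissue handling can induce, had 10 of 10 positive fold changes (median 1.30). They summed to 19530 CPM in Eln-/- replicate 1 and to 581 to 3418 CPM in the other Eln-/- libraries. In Eln+/+ the sum was 7891 CPM in replicate 2 and 545 to 1228 CPM in the other libraries. Blood and immune markers had 6 of 6 negative (median -1.45), most of them globin genes. Their sum was 18870 CPM in Eln+/+ replicate 1 and 339 to 1344 CPM in the other Eln+/+ libraries, against 24.0 to 5145 CPM in Eln-/-. Mesothelial markers had 4 of 5 negative (median -0.96) and fibroblast markers 4 of 8 negative (median -0.25), among them Dcn at -1.28. None of the genes in these marker lists passed the edgeR test, and 0 were at an unadjusted p under 0.05. The part of any of these lists in the level of Gja4 was not tested. The 12 cardiac markers, from tissue known to use Gja1, Gja5 and Gjc1, summed to 56.6 to 1032 CPM in Eln-/- and 15.0 to 1091 CPM in Eln+/+. Their part in the levels of these 3 connexins was not tested.

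**Figure D5:**
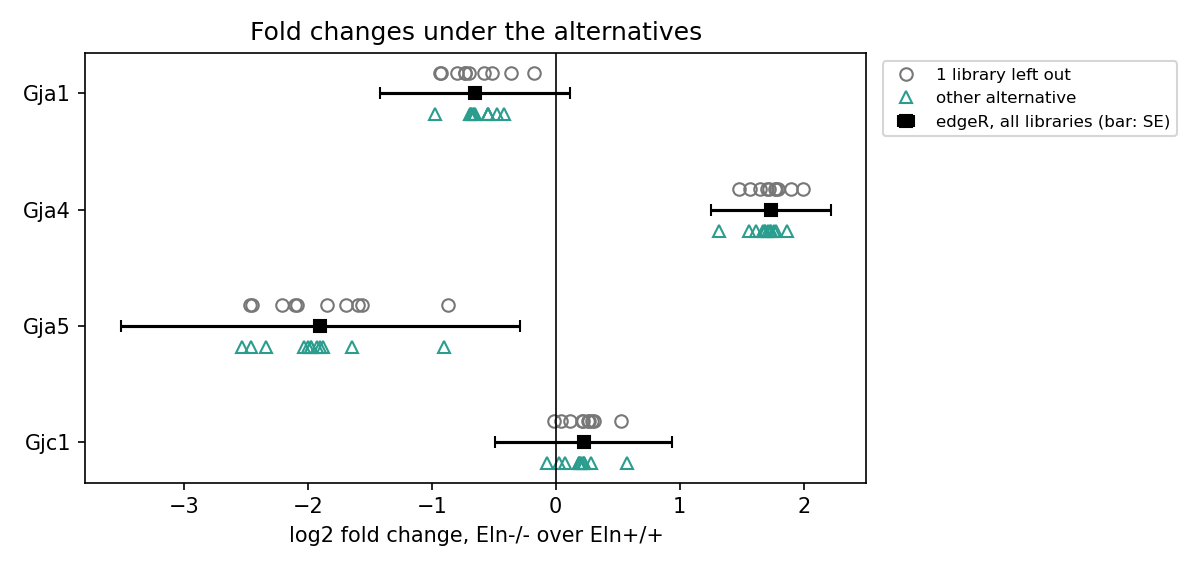
Log2 fold change of each connexin (horizontal axis, Eln-/- over Eln+/+). Black squares with bars are the edgeR values with their SE, circles are fits with 1 library left out and triangles are other scalings, filters, tools and exclusions. Gja4 stays between 1.32 and 1.99, Gja1 and Gja5 stay below 0, and Gjc1 lies around 0.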

How the data were processed

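The authors deposited 1 table of estimated counts per gene and library, not scaled for library size. Each column carries a sample name that the labels also give. STAR, DESeq2 and the build mm10 were used, per the submitters' processing notes. How reads were counted, with which annotation and strand setting, is not given in the sources used here. Gene spans matched GENCODE M21 (GRCm38) for 27046 of 28165 genes (96.0%), and lengths and coordinates come from it. Counts were rounded, filtered with filterByExpr on genotype and scaled with TMM. Genotypes were compared with edgeR's quasi-likelihood test (two-sided, genotype as the only term, Benjamini-Hochberg adjustment over 15718 genes, threshold 0.05). The SE is the log2 fold change divided by the square root of F. The procedure was tested on simulated data. The pass condition of that test used a smaller spread between libraries than these data have. It does not show what can be detected here. Each replicate is 1 library (n = 5 per genotype), and p-values measure only the spread between libraries. The common biological coefficient of variation was 1.16, which limits what can be detected.

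The members, gene lists and part of the alternatives were chosen with earlier results of these data known. Named genes were the 4 connexins, other connexins and pannexins averaging at least 1 CPM, the 2 smallest p in each direction of 2 gene lists, the 3 genes closest to each connexin by Pearson's r, Eln and cell type markers. Fits used edgeR 4.0.16 in R 4.3.3, and alternatives used DESeq2 1.42.0 and limma 3.58.1.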

Additional observations from a re-analysis of the deposited data

Results flagged for a closer look

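Gjc1 in Eln-/- replicate 4 was far from the other libraries of its genotype, with a log2 CPM of 0.27 against 3.53 to 4.53 in the other 4 Eln-/- libraries. It had 16 counts of Gjc1 there, in 1 of the 3 libraries with few detected genes. Gja1 was also low in that library, with a log2 CPM of 3.995 against 6.586 to 7.675 in the other 4, but was not flagged. Each of the 4 connexins was looked at in each genotype, 8 groups in all, and chance alone marks about 1 group in 20. The cause was not tested.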

How the results depend on the processing

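No connexin passed the threshold in any of 22 alternatives, and Gja1, Gja4 and Gja5 kept their direction in all of them. The log2 fold change of Gja1 ranged from -0.97 to -0.17, that of Gja4 from 1.32 to 1.99 and that of Gja5 from -2.53 to -0.87. Gjc1 was -0.074 with the replicate number as a block and -0.014 to 0.53 with 1 library left out. The numbers were not taken to pair the libraries, since same-numbered libraries correlated at -0.556 to 0.510 and 1 of 5 Eln-/- libraries correlated best with its own number; with the block 0 genes were called. Gjb5 was 0.45 with limma-voom. Panx1 was 0.036 with upper quartile factors, 0.0042 without the 3 libraries with few detected genes and -0.30 to 0.28 with 1 library left out. Hspa1a was -1.93 with limma-voom, -0.74 with limma-voom and quality weights, -1.97 with the replicate block, -1.20 without the 2 libraries highest in immediate early genes and -1.80 to 1.64 with 1 library left out. Over all genes edgeR called 0, DESeq2 21 higher and 7 lower on all genes and 4 and 2 on filtered genes, limma-voom 1 and 1, and with quality weights 5 and 2. With 1 library left out edgeR called 0 higher and 0 to 1 lower, and 1 lower without the 2 libraries highest in immediate early genes. Per longest transcript, chosen after seeing the data, Gja1 was highest in 3 Eln-/- libraries, against 0 per exon union. Other causes were not tested.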
